A study of Mus musculus with 8 samples.

Results

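The fibroblast growth factor (FGF) family of the mouse was examined for H3K27-me3 in liver. It was taken as 30 genes, chosen by name from the 21851 protein-coding genes of the GENCODE annotation. They are 21 ligands (15 paracrine, 3 endocrine and 3 intracellular FGFs), 5 receptors, 2 Klotho co-receptors and 2 FGF-binding proteins. H3K27-me3 ChIP-seq had been done on livers of male C57BL/6 mice with floxed alleles of the histone demethylase JMJD3. Mice were injected at 8 weeks of age and fasted for 16 h, 12 weeks after injection. The AAV-Cre group received AAV-TBG-Cre, which carries Cre under TBG, a promoter active in hepatocytes. The AAV-GFP group received the GFP virus. Both groups carried the floxed alleles, so they differ by virus, and both were fasted. There were 2 mice per group, each with a ChIP and an input library. Chromatin came from whole minced liver, so cells other than hepatocytes contributed while the promoter aims Cre at hepatocytes. The share of cells that carry a mark and the amount of mark per cell cannot be told apart.

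H3K27-me3 is laid down by the Polycomb complex PRC2 and marks silent genes, many of them developmental regulators, whereas JMJD3 removes methyl groups from this residue. Paracrine FGFs signal between neighbouring cells of the embryo through receptor tyrosine kinases. Endocrine FGFs circulate and need a Klotho co-receptor, and the liver both makes FGF21 during fasting and responds to FGF15 from the intestine through FGFR4 and β-Klotho.

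Each group was represented by 1 list of enriched regions, made by the authors from both replicates, so no value exists per mouse and no test between groups was possible. The AAV-Cre list held 59267 regions over 73.7 Mb, with a median width of 753 bp. The AAV-GFP list held 34586 regions over 14.9 Mb, with a median width of 231 bp. The AAV-Cre list therefore had 1.71 times as many regions over 4.93 times as many bases, and its shortest region was 300 bp against 120 bp. These differences of the lists as a whole run through every comparison below, and their part in it was not tested. Neither list reports on the deletion of JMJD3 itself. As a check of the tissue, 0 of 8 hepatocyte genes had a region within 15 kb of a start site in either list. Of genes listed as regulators of other lineages, 8 of 8 had one in both lists. Of all protein-coding genes, 41.6% had one in AAV-Cre, 28% in AAV-GFP and 26.8% in both. Within 1 kb, 7 of these 8 regulators had a region in AAV-Cre and 6 in AAV-GFP, and Gata4 had none.

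Reference sequences are shown first for 5 members that span what was found. Each is the 250 bases before a RefSeq start site in GRCm38.p6, read 5′ to 3′ in the direction of the gene, with CG dinucleotides in capitals. Fgf21, the fasting hormone, was under no H3K27-me3 region on this stretch in either list, and its stretch held 9 CpGs. Here and below, a stretch without a region lacks a call, which does not show that the mark is absent.
Fgf21 (chr7:45615491-45615740, minus strand): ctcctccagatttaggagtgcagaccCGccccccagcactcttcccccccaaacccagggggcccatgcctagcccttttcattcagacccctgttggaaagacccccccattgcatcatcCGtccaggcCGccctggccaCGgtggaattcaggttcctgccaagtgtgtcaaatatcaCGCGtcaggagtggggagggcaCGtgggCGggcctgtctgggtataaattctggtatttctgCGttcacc
Fgf10, a mesenchymal ligand of lung and limb buds, was under an AAV-Cre region for 128 of the 250 bases and under no AAV-GFP region.
Fgf10 (chr13:118714449-118714698, plus strand): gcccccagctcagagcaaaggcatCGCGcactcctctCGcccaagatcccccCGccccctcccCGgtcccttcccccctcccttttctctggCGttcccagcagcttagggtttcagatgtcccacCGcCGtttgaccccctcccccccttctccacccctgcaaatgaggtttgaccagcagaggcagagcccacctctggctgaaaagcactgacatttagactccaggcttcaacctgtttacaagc
Fgf18, a ligand of cartilage and bone, and Kl, the co-receptor of FGF23, were covered for all 250 bases in both lists. Their stretches held 37 and 13 CpGs.
Fgf18 (chr11:33147401-33147650, minus strand): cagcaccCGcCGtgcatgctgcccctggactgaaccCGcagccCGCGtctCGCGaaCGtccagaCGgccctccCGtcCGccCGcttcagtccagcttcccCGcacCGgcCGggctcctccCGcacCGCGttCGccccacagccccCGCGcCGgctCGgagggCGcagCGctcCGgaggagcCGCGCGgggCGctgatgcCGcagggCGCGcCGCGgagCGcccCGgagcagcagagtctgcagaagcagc
Kl (chr5:150952357-150952606, plus strand): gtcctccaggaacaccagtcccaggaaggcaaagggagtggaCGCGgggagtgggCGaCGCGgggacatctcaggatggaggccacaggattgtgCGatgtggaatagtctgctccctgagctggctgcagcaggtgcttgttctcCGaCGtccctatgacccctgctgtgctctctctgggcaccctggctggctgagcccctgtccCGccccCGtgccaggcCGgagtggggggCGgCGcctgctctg
Fgfrl1, a receptor-like protein that lacks a kinase domain, was covered in neither list, and its stretch held 30 CpGs.
Fgfrl1 (chr5:108693979-108694228, plus strand): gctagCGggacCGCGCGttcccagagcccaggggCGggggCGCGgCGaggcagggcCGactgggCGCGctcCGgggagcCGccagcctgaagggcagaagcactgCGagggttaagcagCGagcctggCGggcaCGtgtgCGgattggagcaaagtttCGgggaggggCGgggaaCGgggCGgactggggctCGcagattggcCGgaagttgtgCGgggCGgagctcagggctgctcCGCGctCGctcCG
RefSeq stretches were found for 23 of the 30 members.

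A gene was called marked when at least 1 bp of a region lay within 15 kb of one of its start sites. In AAV-Cre 25 of 30 members (83.3%) were marked, against 41.6% of all protein-coding genes. In AAV-GFP 20 members (66.7%) were marked, against 28% of all genes. All 20 were also marked in AAV-Cre, where 26.8% of all genes were marked in both lists. The AAV-Cre list alone marked 5 members (16.7%), Fgf1, Fgf7, Fgf10, Fgf21 and Fgfbp1, a share near the 14.8% of all genes with this pattern. The AAV-GFP list alone marked 0 members and 1.21% of all genes. Neither list marked Fgf22, Fgfr3, Fgfr4, Fgfrl1 or Klb. At this window the members' shares were above those of all genes in each list, and their share marked in AAV-Cre alone was near that of all genes.

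Within 1 kb of a start site, 20 members (66.7%) were marked in AAV-Cre and 17 (56.7%) in AAV-GFP, against 24% and 16.6% of all genes. Only in AAV-Cre were 3 members marked, Fgf10, Fgf23 and Fgfbp1, which is 10.0% against 7.63% of all genes. None of the 30 was marked only in AAV-GFP, a pattern of 0.288% of all genes. Over gene bodies, 21 members were marked in AAV-Cre and 19 in AAV-GFP, 70.0% and 63.3% against 28.9% and 20.7% of all genes. Fgf10 and Fgfbp1 were the 2 members with a body marked in AAV-Cre alone (6.67% against 8.87%; the Fgf10 region lies before its RefSeq start site and was lost as a body call with RefSeq transcripts), and 0 bodies were marked in AAV-GFP alone (0.723% of all genes). The whole 2-sided 1 kb window was covered at 10 members in AAV-Cre and at 2, Fgf8 and Fgf15, in AAV-GFP, against 6.22% and 0.641% of all genes.

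**Figure D1:**
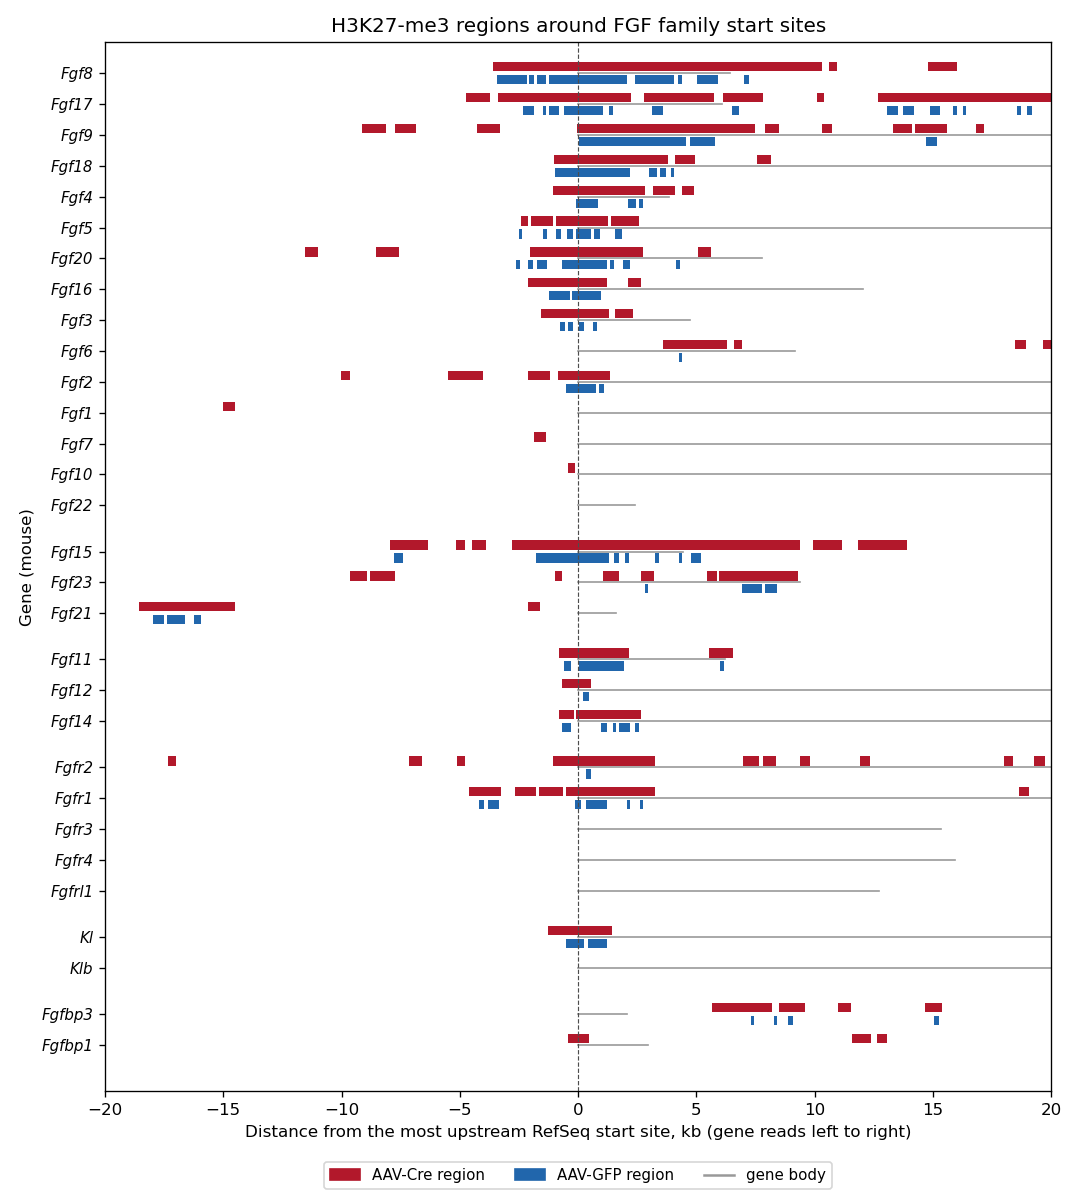
Position of H3K27-me3 regions around the 30 genes. The x axis is the distance in kb from the most upstream RefSeq start site, each row is a gene, red bars are AAV-Cre regions, blue bars are AAV-GFP regions and grey lines are gene bodies, cut at 20 kb. Where a blue bar is present a wider red bar mostly spans it, and the rows of Fgf22, Fgfr3, Fgfr4, Fgfrl1 and Klb hold no red or blue bar.

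The regions themselves had a common form. Within 15 kb of the members there were 101 AAV-Cre regions of 300 to 13912 bp, median 896 bp, and 99 AAV-GFP regions of 120 to 4516 bp, median 274 bp. Of the AAV-GFP bases in these windows, 57487 of 58511 (98.2%) lay inside AAV-Cre regions. An AAV-GFP region overlapped an AAV-Cre region in 93 of 99 cases (93.9%, against 86.4% of the whole list). In the other direction 41 of 101 AAV-Cre regions overlapped an AAV-GFP region (40.6%, against 24.2% of the whole list). One AAV-Cre region often spanned several AAV-GFP regions, and at 10 members AAV-GFP had more regions than AAV-Cre although it covered fewer bases. A caller's q-value of 0.05 or lower was reached by 92.1% of the members' AAV-Cre regions and by 54.5% of their AAV-GFP regions, near the 88.6% and 46.8% of the whole lists.

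Regions covered 15.4% of the bases within 15 kb of the members in AAV-Cre and 5.26% in AAV-GFP, a ratio of 2.92. Without Fgfr2, which has a GENCODE start site near Ctbp2, these shares were 13.7% and 4.70%, a ratio of 2.91. Across all protein-coding genes the shares were 6.68% and 1.92%, a ratio of 3.48. Coverage was higher in AAV-Cre at 25 members and higher in AAV-GFP at 0, against 41.5% and 1.26% of all genes. Within 1 kb the members' shares were 48.3% and 32.1%, a ratio of 1.5, where all genes had 15.4% and 7.16%, a ratio of 2.15. Over gene bodies the members' shares were 8.25% and 2.02%, a ratio of 4.08, and those of all genes 3.35% and 0.822%, a ratio of 4.07. Without Fgfr2, whose annotated body is discussed below, the members' ratio over bodies was 2.42. The members' coverage was above that of all genes in every window of both lists, and the ratio between lists was below that of all genes at the start-site windows. Over bodies the ratio was near that of all genes with Fgfr2 included and below it without Fgfr2. These are ratios of sums over regions called separately in each list. The order of the 30 members by coverage within 15 kb was much alike in both lists (Spearman's rho 0.901, a description over genes that share 2 lists).

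**Figure D2:**
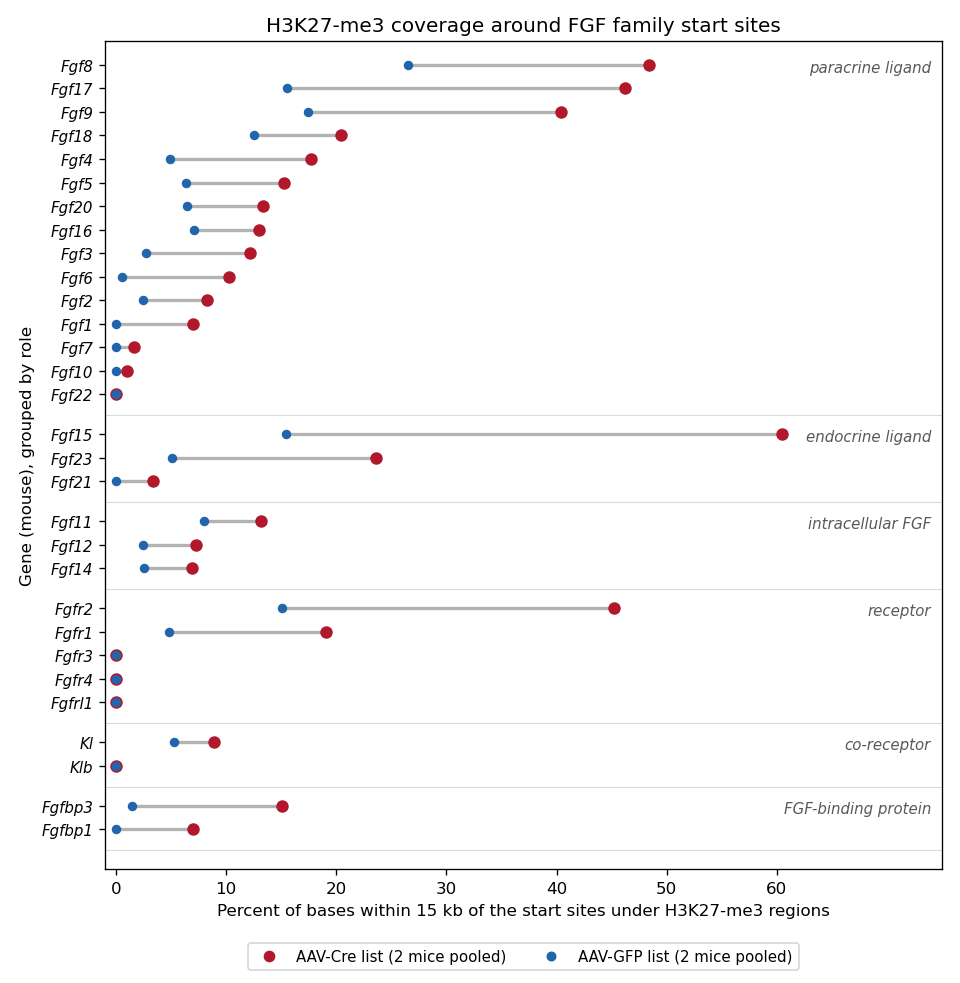
Share of bases within 15 kb of the start sites under H3K27-me3 regions, in percent on the x axis, for each of the 30 genes grouped by role. Red points are the AAV-Cre list, blue points the AAV-GFP list, and a grey line joins the values of a gene. Every red point lies at or to the right of its blue point, with Fgf15 reaching 60.5% against 15.4% and Fgf21 3.33% against 0%.

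Among the paracrine ligands, Fgf8 and Fgf17 of the Fgf8 subfamily had the highest shares of their 15 kb windows covered in AAV-Cre, although Fgf9, with more start sites, had more bases covered than Fgf17 (13967 against 13866 bp). Fgf8, which patterns limb and midbrain, had a single AAV-Cre region of 13912 bp over its whole body, with a fold enrichment over input of 12.5, at percentile 99.4 of −log10 p in its list. In AAV-GFP the same stretch held 8 separate regions, the strongest 3322 bp wide at percentile 99.2, and the 1 kb windows were wholly covered in both lists. Fgf17 was covered for 46.2% of its 15 kb window in AAV-Cre and 15.5% in AAV-GFP. Part of that coverage lay at the start sites of its neighbour Dmtn, an actin-binding protein of red cells, where an AAV-Cre region of 7415 bp spanned 7 AAV-GFP regions. Fgf18 had regions of 4820 bp and 3153 bp over its start site, and its ratio of bases covered within 15 kb, 1.63, was the lowest of the 20 members marked in both lists.

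Each gene of the Fgf9 subfamily also had a region over a start site in both lists, though not over every start site of Fgf9 and Fgf20. Fgf9, a signal of lung and gonad development, had regions of 7544 bp in AAV-Cre and 4516 bp in AAV-GFP, at percentiles 97.9 and 99.7 of their own lists. Fgf20, known from the inner ear, had 4776 bp and 1877 bp. Fgf16, known from the heart, had 3352 bp and 1219 bp. In these 3 genes the strongest region of each list stood over a start site.

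Fgf3, Fgf4 and Fgf15 lie together on chromosome 7, with start sites 22791 bp (Fgf3 to Fgf4) and 35145 bp (Fgf4 to Fgf15) apart. In neither list did a region fall within the 15 kb windows of both neighbours in a pair. The windows of Fgf4 and Fgf15 do not overlap, so only a region bridging the gap between them could have counted. At Fgf4, a ligand of the early embryo, a 3918-bp AAV-Cre region and a 931-bp AAV-GFP region lay over the RefSeq start site. At Fgf3, a ligand of ear development, the AAV-Cre list had 2905 bp over the start site, whereas the AAV-GFP list had 4 pieces of 153 to 235 bp. Fgf5, a regulator of hair growth, and Fgf2, a mitogen of many cells, had AAV-Cre regions of 2165 bp and 2230 bp and AAV-GFP regions of 622 bp and 1295 bp over a start site.

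Fgf6, a ligand of muscle, differed from these because its start site was bare in both lists. Its AAV-Cre region began 3558 bp inside the gene and was 2703 bp wide, and its AAV-GFP region was 157 bp wide with a q-value of 0.63. The ratio of covered bases, 19.5, was the highest under GENCODE start sites and rests on that weak AAV-GFP region.

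Fgf1, Fgf7, Fgf10 and Fgf22 had no AAV-GFP region within 15 kb. Fgf7, Fgf10 and Fgf22 form a subfamily of ligands that act on epithelia, and their AAV-Cre coverage within 15 kb was 481, 308 and 0 bp, the lowest of all ligands. The region of Fgf7 lay 1375 bp upstream at percentile 50.6 of its list, and that of Fgf10 lay 123 bp upstream at percentile 49.7. The nearest AAV-GFP regions were more than 15 kb away, at 310189 bp for Fgf7, 313666 bp for Fgf10 and 22929 bp for Fgf22. The nearest region of Fgf22 in AAV-Cre, at 22134 bp, was over the start site of Fstl3, an inhibitor of activin. Fgf1, a ligand of all FGF receptors, had 3 AAV-Cre regions between 3725 and 11711 bp upstream of a GENCODE start site, the strongest 3248 bp wide at percentile 87.1. All 3 regions also lay over the body of another gene, although the start site closest to each was that of Fgf1. Measured from RefSeq start sites, 499 bp of these remained within 15 kb.

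The 3 endocrine ligands differed widely from each other. Fgf15, the intestinal hormone that lowers bile acid synthesis in liver, was the most covered of all 21 ligands in AAV-Cre, with 18136 bp within 15 kb (60.5%). A single AAV-Cre region of 12174 bp (chr7:144893750-144905923, fold 12.5, percentile 99.4) held the whole gene. In AAV-GFP the strongest region was 3098 bp wide (percentile 98.5), 7 regions covered 4622 bp (15.4%), and the 1 kb window was wholly covered in both lists. Fgf23, the phosphate hormone of bone, was covered for 7088 bp in AAV-Cre and 1521 bp in AAV-GFP. Its widest AAV-Cre region, 3326 bp at percentile 97.8, lay over the 3′ part of the gene and spanned 2 AAV-GFP regions. Its mark within 1 kb of the start site was a 326-bp AAV-Cre region 676 bp upstream, at percentile 32.5, and this call was lost when equal numbers of top peaks were taken from each list.

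Fgf21 (chr7:45613886-45615490, minus strand, mm10) carried no region within 1 kb of its start site and none over its body in either list. In AAV-Cre 2 regions lay within 15 kb and covered 1000 bp (3.33%), and in AAV-GFP there was none. The nearer AAV-Cre region (chr7:45617091-45617613) was 523 bp wide and began 1601 bp upstream. It had a fold enrichment of 2.90, a −log10 q of 2.52 and percentile 44.7 in its list, and overlapped no AAV-GFP region. It also lay over exons, untranslated sequence included, and a start site of Fut1, a fucosyltransferase gene that runs the opposite way. The part of it before the first Fut1 exon, with 8 CpGs in capitals, reads as follows.
Region upstream of Fgf21 (chr7:45617091-45617288, plus strand): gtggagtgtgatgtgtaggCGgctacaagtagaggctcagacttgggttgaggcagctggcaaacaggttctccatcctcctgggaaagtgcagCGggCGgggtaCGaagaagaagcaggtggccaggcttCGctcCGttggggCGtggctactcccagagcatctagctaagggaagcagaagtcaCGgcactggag
The other region (chr7:45630014-45634054) was 4041 bp wide, had a fold enrichment of 8.18 and stood at percentile 97.7. Its near edge was 14524 bp from Fgf21, just inside the window, and 2526 bp from a start site of Rasip1, an endothelial Ras-binding protein, whose exons it overlapped. It spanned 3 AAV-GFP regions, the nearest of which lay 15961 bp from Fgf21, just outside the window. That AAV-GFP region was 266 bp wide at percentile 2.73 of its list. The call of Fgf21 in AAV-Cre alone within 15 kb therefore rests on the 523-bp region and on which side of 15 kb the edges at Rasip1 fall.

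Against the 20 other ligands, Fgf21 was among the least covered. Its 1000 bp within 15 kb in AAV-Cre were below those of 17 ligands and above those of 3, Fgf7, Fgf10 and Fgf22, and the others had a median of 4812 bp. Its distance to the nearest AAV-Cre region, 1601 bp, was exceeded by 3 ligands, and 17 had a closer one. In the 1 kb window the other ligands had medians of 2001 bp in AAV-Cre and 1315 bp in AAV-GFP, while Fgf21 had 0 bp. In AAV-GFP Fgf21 and 4 other ligands had 0 bp within 15 kb, where the median of the others was 1520.5 bp. These ranks describe 2 lists and carry no test.

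**Figure D3:**
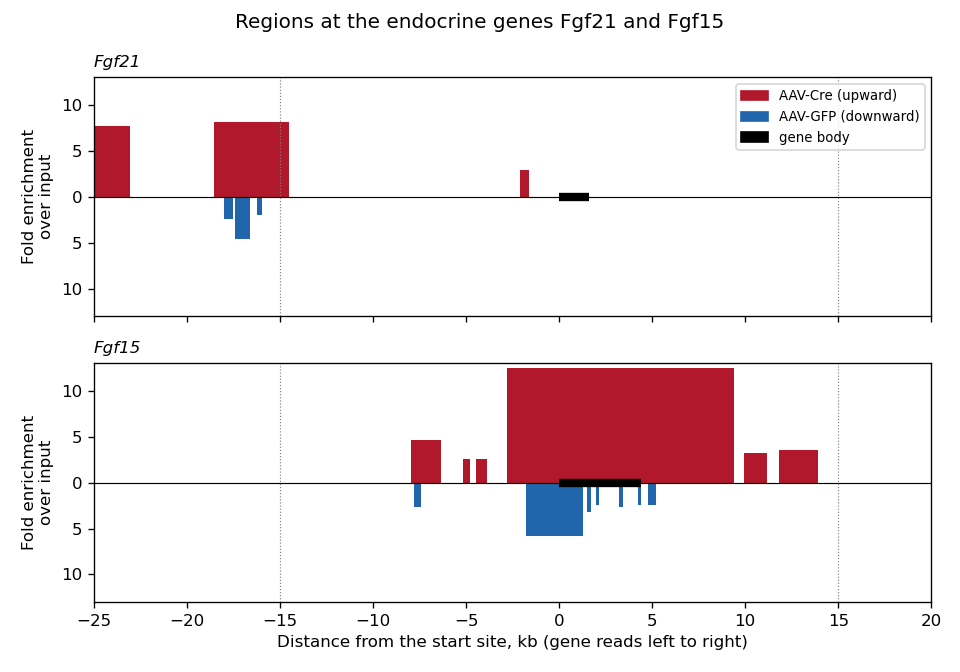
Regions at Fgf21 (top) and Fgf15 (bottom). The x axis is the distance in kb from the start site along the gene, bar height is the caller's fold enrichment over input at the summit, drawn across the whole width of the region, with AAV-Cre upward in red and AAV-GFP downward in blue; black bars are gene bodies and dotted lines mark 15 kb. Fold enrichments should be read within a list. The body of Fgf15 lies under a region of 12174 bp, and that of Fgf21 under none.

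The intracellular FGFs, which bind sodium channels and are not secreted, were marked within 1 kb of a start site in both lists at 3 of 3 genes. This pattern was found at 14 of all 21 ligands and at 16.3% of all protein-coding genes. Fgf11 had regions of 2956 bp and 1941 bp over a start site, at percentiles 98.2 and 98.7. Fgf12 and Fgf14 are long neuronal genes, and regions covered 1.58% and 0.565% of their bodies in AAV-Cre. In AAV-GFP their nearest regions were 261 bp and 357 bp wide and lay 33 and 320 bp from a start site, with q-values of 0.979 and 0.121. Their strongest AAV-GFP regions within 15 kb were 675 bp and 465 bp wide, at percentiles 71.8 and 92.0 of the list. Both genes stayed marked within 1 kb in AAV-GFP at a q-value limit of 0.01. Fgf12 also had a 129-bp AAV-GFP region 38 bp from another start site, at percentile 66.8.

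Receptors and co-receptors split into marked and bare genes. Fgfr3, Fgfr4 and Fgfrl1 had no region within 15 kb in either list. The nearest AAV-Cre regions were at 23115, 140253 and 21116 bp, and the nearest AAV-GFP regions at 25898, 194968 and 143666 bp. When start sites of every annotated transcript were used, Fgfrl1 was marked within 15 kb in AAV-Cre alone. Klb, the co-receptor through which liver and fat respond to FGF15 and FGF21, was the most remote member, with the nearest regions at 355093 bp in AAV-Cre and 911339 bp in AAV-GFP. Fgfr4 and Klb, the receptor pair of hepatocytes, thus lacked a call over more than 100 kb in both lists. Kl, the α-Klotho gene of kidney, had a 2677-bp AAV-Cre region over its start site, and 2 AAV-GFP regions of 756 and 818 bp inside it.

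Fgfr1, a receptor of mesenchymal cells, had a region over a start site in both lists. Its widest AAV-Cre region was 3772 bp at percentile 94.6. Of its 6 AAV-GFP regions within 15 kb, 1 had a q-value of 0.05 or lower, and it lay 3340 bp upstream. At that limit the AAV-GFP call of Fgfr1 within 1 kb was lost, which left it marked there in AAV-Cre alone. Fgfr2, which in its epithelial form receives Fgf7 and Fgf10, needs care because GENCODE M21 gives it a body of 2960900 bp with a start site near Ctbp2. With RefSeq transcripts, a choice made after seeing the data, its body is 104358 bp. Regions then covered 18619 bp of it in AAV-Cre (17.8%) and 214 bp in AAV-GFP (0.205%). Within 15 kb of its RefSeq start sites the values were 7270 bp and 214 bp, a ratio of 34.0, the highest of the 20 members with a value in both lists under RefSeq start sites. The AAV-Cre region over that start site was 4305 bp wide at percentile 87.6, while the AAV-GFP region had a q-value of 0.121. The contrast therefore rests, as at Fgf6, on 1 weak AAV-GFP call.

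The FGF-binding proteins release FGFs from the matrix. Fgfbp1 had an 893-bp AAV-Cre region over its start site and 2 more within 15 kb, with the strongest at percentile 44.7, and no AAV-GFP region within 111811 bp. Fgfbp3 was bare at its start site, with the nearest AAV-Cre region at 5674 bp and the nearest AAV-GFP region at 7335 bp. Its AAV-GFP regions were 3 of 120 to 195 bp, and covered bases within 15 kb had a ratio of 10.4.

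CpG content was counted within 1 kb of the start sites, because H3K27-me3 is known to gather at CpG-rich promoters of silent genes. The 17 members marked there in both lists had 2.37 to 7.70 CpGs per 100 bases, median 6.10, where the median of all genes so marked was 3.97. The 3 members marked only in AAV-Cre had 0.800 (Fgf23), 0.850 (Fgfbp1) and 3.60 (Fgf10), and all genes so marked had a median of 2.05. The 10 members marked in neither list had 1.26 to 8.22, median 2.25, against 2.85 for all such genes. CpG content did not sort the members fully, since Fgfrl1 with 8.22, Fgfr3 with 6.61, Fgfbp3 with 5.05 and Fgfr4 with 4.25 were bare. Fgf21 had 1.30 CpGs per 100 bases, at percentile 26.5 of all genes, and Fgf15 had 5.80.

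**Figure D4:**
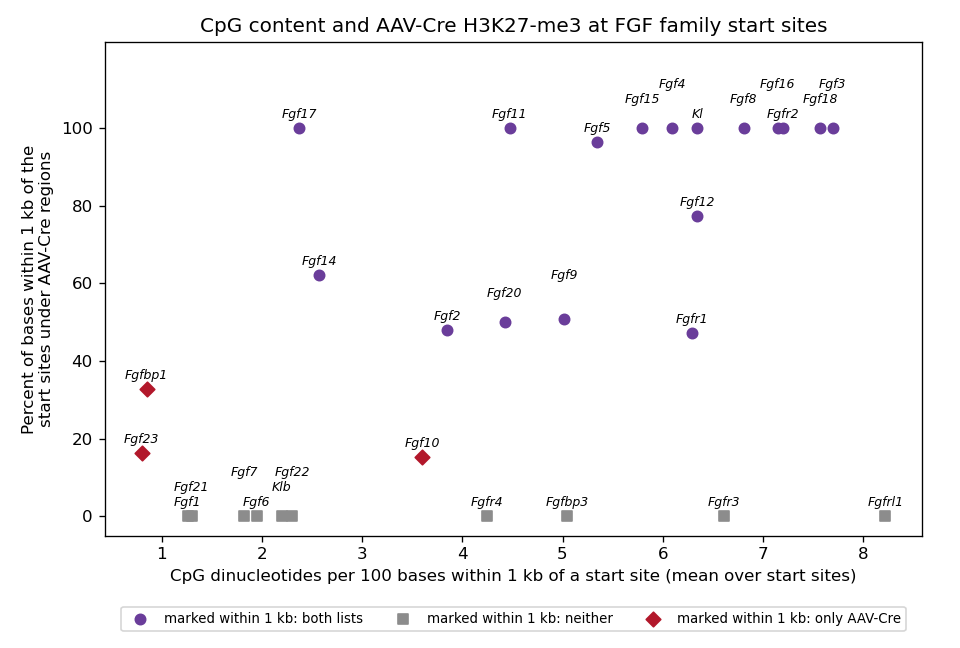
CpG dinucleotides per 100 bases within 1 kb of a start site (x axis, mean over a gene's start sites) against the percent of bases within 1 kb under AAV-Cre regions (y axis), 1 point per gene. Purple circles were marked in both lists, red diamonds only in AAV-Cre, grey squares in neither. The fully covered genes sit mostly at the right, while Fgfr3 and Fgfrl1 lie at the right with 0% covered.

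The letters AGGTCA, the core letters bound by nuclear receptors such as PPARα, were searched on both strands (TGACCT) in the 250 bases before RefSeq start sites. They occurred in 3 of 27 stretches of the members (11.1%; Fgf6, Fgf7 and 1 of the stretches of Fgf12) and in 4607 of 32851 stretches in all (14.0%). The stretch of Fgf21 shown above held none. A match or its absence describes only these letters in this window.

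A list of 30 other genes of the pathway was counted in the same way. Within 15 kb, 14 were marked in AAV-Cre (46.7%) and 10 in AAV-GFP (33.3%), close to the shares of all genes. All 10 were marked in AAV-Cre too, and 4 (13.3%, against 14.8% of all genes) were marked there alone: Frs2, the receptor adaptor; Cbl, a ubiquitin ligase; Spry4, a feedback inhibitor; and Atf4, a stress-response factor. Their nearest AAV-Cre regions were 13668, 6236, 10491 and 11533 bp from a start site. Within 1 kb, 7 genes (23.3%, against 16.3% of all genes) were marked in both lists. These were the feedback inhibitors and modulators Spry1, Spry2, Il17rd, Flrt2 and Flrt3 and the ETS factors Etv1 and Etv4, which are induced by FGF signals. Spry2 was covered for 84.8% of its 1 kb window in AAV-GFP and wholly in AAV-Cre. By group, to be read against the same 41.6% and 28% of all genes, the feedback genes and modulators were marked within 15 kb at 8 of 11 genes in AAV-Cre and 7 in AAV-GFP, and the ETS targets at 3 of 3 in both. Genes of receptor signalling were marked at 2 of 8 and 0 of 8. Of 8 genes of the liver FGF15 and FGF21 axis, which include Nr1h4, Nr0b2, Cyp7a1 and Ppara, Atf4 was the 1 marked in AAV-Cre and none was marked in AAV-GFP. The region at Atf4 was a weak call, 350 bp wide at percentile 8.27 with a q-value of 0.0573.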

How the data were processed

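H3K27-me3 ChIP-seq of liver was analysed from 2 peak lists. Per the study's methods, the authors used the AQUAS histone pipeline with pooled input: reads were mapped to mm10 (BWA 0.7.13), filtered (SAMtools 1.2, Picard 1.126), and peaks called with MACS that overlapped across replicates were kept. Each deposited list pools both replicates, and narrow-peak calling splits broad domains. The deposited values are a fold enrichment over input (a ratio), and the −log10 of a p-value and of a q-value from the authors' caller. They were read within a list, since read depth is not in the files.

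Regions were joined to GENCODE M21 protein-coding genes (basic transcripts; GRCm38) with Python 3.11.15, numpy 2.4.6 and pandas 2.3.3, by an overlap of at least 1 bp with windows of 1 kb and 15 kb or gene bodies. Code was tested on simulated data. No test between groups was possible. Members and gene lists were chosen with earlier results of these data known. All members are accounted for; other pathway genes are named where marked in 1 list within 15 kb or both within 1 kb, and neighbours where their start site is closest to a region. Alternatives were q-value limits, equal numbers of peaks, a width minimum, other start sites, overlaps and windows, and RefSeq transcripts.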

Additional observations from a re-analysis of the deposited data

How the results depend on the processing

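No paired analysis was possible because each list pools both replicates, for which reason leaving out each mouse could not be run either. Over the alternatives, 24 to 28 members were marked within 15 kb in AAV-Cre and 17 to 23 in AAV-GFP, and the number marked in AAV-GFP alone stayed at 0 for all windows. The number marked in AAV-Cre alone moved most. Within 15 kb it was 8 with regions of at least 300 bp, a width that every AAV-Cre region has, and within 1 kb it was 5 at a q-value of 0.01. Over bodies it was 4 at a q-value of 0.01, 4 with regions of at least 300 bp and 1, Fgfbp1, with RefSeq transcripts, an alternative added after seeing the data. For Fgf21, the nearest AAV-GFP region was at 16630 bp at q-value limits of 0.05 and 0.01. Its AAV-Cre coverage was 523 bp within 5 kb and 15248 bp within 50 kb, and its AAV-GFP coverage 3721 bp within 50 kb. The other 98 values were unchanged or within 1.5 times of those reported. Depth is unknown, so how far it limits the regions called in either list was not tested.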
